A study of Mus musculus with 7 samples.

Results

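The genes described here are 45 splicing factors, taken from the 24062 gene symbols of the count files by name. They comprise every symbol that starts with Srsf or Hnrnp, together with Tra2a, Tra2b, Ptbp1 and 11 factors known for their roles in neurons, namely Rbfox1, Rbfox2, Rbfox3, Nova1, Nova2, Elavl2, Elavl3, Elavl4, Ptbp2, Celf2 and Celf4. The first 34 are called general factors below, and the 11 others neuronal factors. In the study, ERα+ neurons of the medial preoptic area (MPA), a hypothalamic region that controls body temperature, were recorded in brain slices warmed by 5 °C, their contents were drawn into the patch pipette, and RNA from 2 neurons of similar response was pooled as 1 sample. All samples came from ZsGreen-positive neurons of adult Esr1-ZsGreen mice (C57BL/6J background), stated to be female. In these mice a green fluorescent protein marks cells that use the Esr1 gene. Counts of sex-linked genes, given below, go against the stated sex. Of the 7 samples, 4 held temperature-responsive neurons, whose firing rate changed strongly on warming, and 3 held non-responsive neurons, whose rate did not. Both groups were warmed, so that no unwarmed sample enters the comparison, and the transgenic reporter rather than ERα itself defined the cells. The labels do not say how many mice gave the neurons of each group, so the tests measure the spread between these samples.

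SR proteins and heterogeneous nuclear ribonucleoproteins (hnRNPs) bind nascent transcripts and steer the choice of splice sites. SR proteins carry a domain rich in arginine and serine and mostly favour exon inclusion, whereas many hnRNPs favour skipping, and both also act in RNA export and stability. Neurons add their own factors to this set. RBFOX, NOVA, ELAVL (Hu), PTBP2 and CELF proteins direct the splicing of synaptic and ion channel transcripts, and the switch from PTBP1 to PTBP2 accompanies neuronal differentiation.

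Library totals did not overlap, ranging from 1914497 to 2814360 counts for temperature-responsive neurons and from 3309361 to 5125280 for non-responsive neurons. More genes were detected in the smaller libraries, 19852 to 21177 against 17818 to 19820. A floor of 3 counts corresponded to 0.585 to 1.57 CPM, the count of a gene scaled to a common library total, and such floors cover counting error only. Each neuronal marker of a list of 5 (Snap25, Syt1, Stmn2, Map2, Tubb3) had at least 297 counts in every sample, whereas Esr1 had 10 to 27. The neuronal markers summed to 2783 to 3166 CPM in temperature-responsive and 2528 to 2881 CPM in non-responsive samples. Markers of other cells were also present. Summed over 5 genes each, astrocyte markers reached 1095 to 1223 CPM in temperature-responsive and 899.6 to 1107 CPM in non-responsive samples, oligodendrocyte markers 2807 to 3588 CPM and 2442 to 3005 CPM, and microglia markers 357 to 411 CPM and 386 to 407 CPM. In both groups the range of the oligodendrocyte sum overlapped that of the neuronal sum. No marker of any list was at 0 in any sample. Endothelial markers lay between 76.0 and 274.9 CPM in temperature-responsive and between 17.9 and 54.6 CPM in non-responsive samples, and 3 of the 5 rose. The Y-linked Ddx3y had 684 to 1150 counts in each sample and Xist at most 14, against the stated use of female mice. The part of these differences in the results below was not tested. In pooled samples, fewer cells of a type and less RNA per cell cannot be told apart.

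Temperature-responsive and non-responsive neurons were compared to ask which transcripts go with warm responsiveness. General splicing factors were higher in temperature-responsive neurons or did not pass the test, and none passed it in the other direction. Of the 33 general factors with enough counts to be tested, 16 rose (48.5%), where 15.1% of all 14407 genes tested rose (edgeR's quasi-likelihood test, Benjamini-Hochberg adjusted p under 0.05). None of the 33 fell, against 14.9% of all genes, and the number was also 0 at an unadjusted p under 0.05 and with DESeq2. Both shares over all genes differ with the GC content of the transcripts, as given below. Among the 27 general factors with a mean of at least 50 CPM, 15 rose, against 22.0% of all genes at that level. Counting both directions and both classes, 25 of 44 splicing factors passed, against 30.0% of all genes. The median log2 fold change was 0.28 over the 33 factors and 0.01 over all genes. Sizes were modest, the largest being Hnrnpa1 at 0.72 and Hnrnpa0 at 0.71. The neuronal factors moved both ways, with 5 higher and 4 lower among the 11. Without non-responsive replicate 2 or without non-responsive replicate 3, 9 general factors rose in place of 16, and without the latter 3 neuronal factors rose in place of 5. Calls over all genes dropped as well, from 4327 in either direction to 2986 and 2620. When the genes detected in each sample entered the fit as a covariate, no splicing factor passed (13 had an unadjusted p under 0.05, edgeR), but only 1 of all genes tested passed in that fit, and the number of genes detected itself separates the groups.

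**Figure D1:**
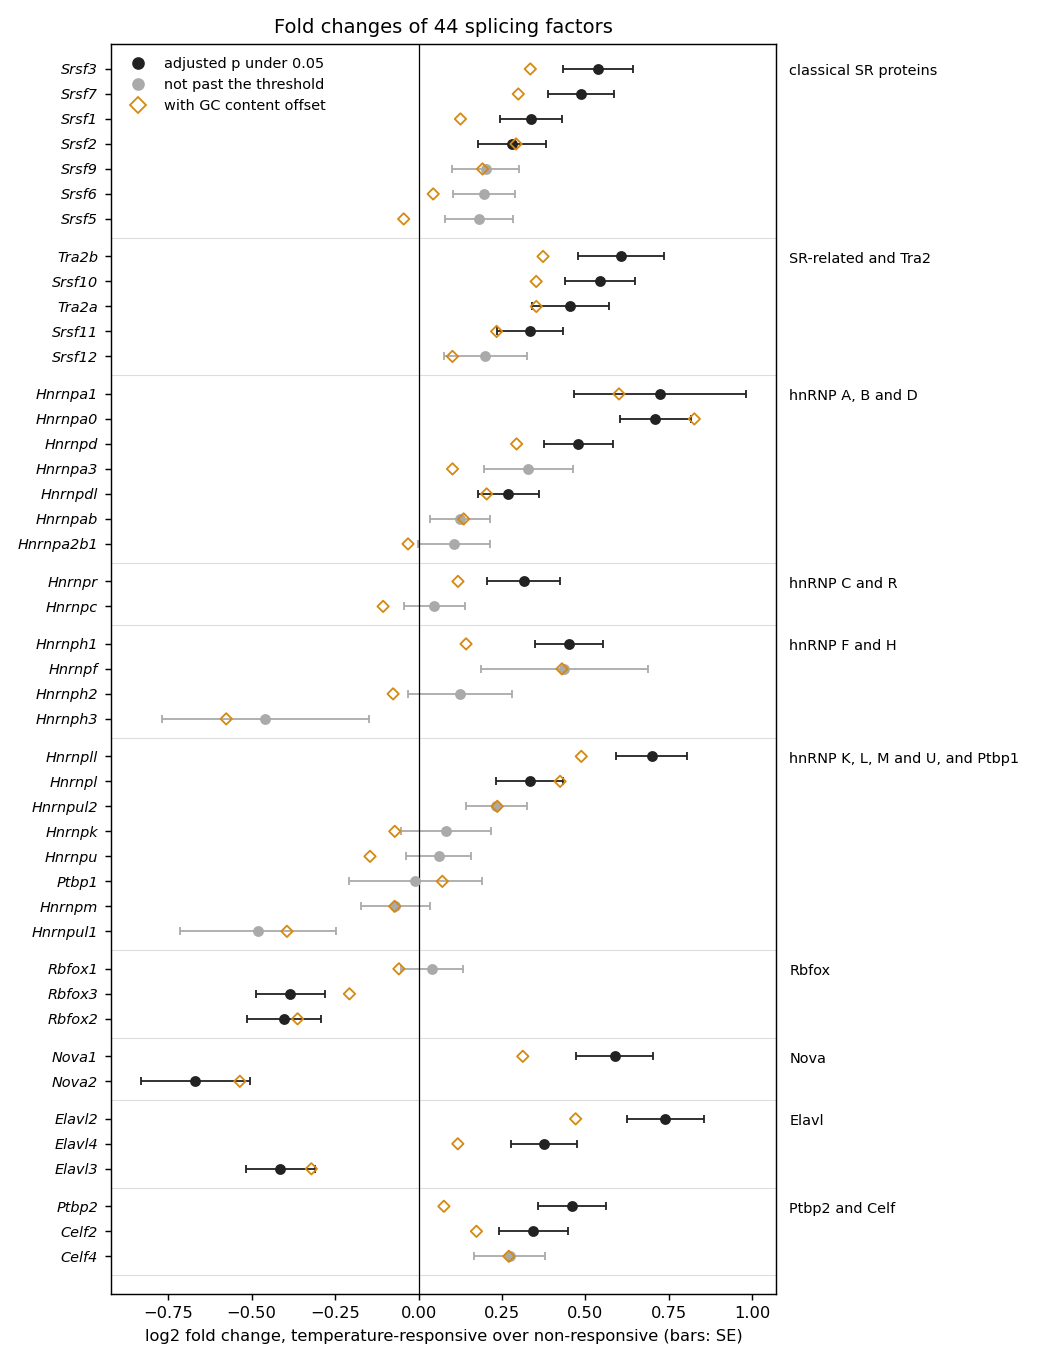
Log2 fold change of temperature-responsive over non-responsive neurons (x axis) for the 44 splicing factors tested, by family, with standard errors as bars. Filled black points passed the threshold, and open diamonds give the same gene after an offset for GC content. The general factors past the threshold all lie to the right of 0, from 0.27 to 0.72, whereas the Rbfox, Nova and Elavl families include points on the left, down to -0.67.

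The classical SR proteins were among the more abundant splicing factors. Srsf7, a shuttling SR protein that also serves in mRNA export, had the highest level of its family per length, at 94.3 CPM per kb of exon averaged over the samples. It stood at 394, 399, 368 and 343 CPM in the temperature-responsive samples and at 289, 269 and 282 CPM in the non-responsive samples. The groups did not overlap, and the log2 fold change was 0.49 (SE 0.099, edgeR adjusted p = 0.000953). Srsf3, the smallest classical SR protein, which couples splicing to export and polyadenylation, reached 297, 294, 273 and 264 CPM in temperature-responsive samples against 230, 199 and 179 CPM in non-responsive samples. All 4 former samples were higher than all 3 latter, with a log2 fold change of 0.54 (SE 0.105, edgeR adjusted p = 0.000748). Of the 50-base stretches of the Srsf3 transcript, 18.3% are also found in other genes. Srsf1, the founding member of the family, lay within 379 to 396 CPM in temperature-responsive and within 307 to 331 CPM in non-responsive samples, and rose by 0.34 on the log2 scale (edgeR adjusted p = 0.00851). Srsf2 also rose, by less (0.28, edgeR adjusted p = 0.0399), a call that held in 3 of the 7 fits that left out 1 sample, and 35.2% of the 50-base stretches of its transcript are also found in other genes, mainly the overlapping Mettl23. Srsf5, Srsf6 and Srsf9 did not pass the threshold, with log2 fold changes of 0.18, 0.20 and 0.20, although the groups did not overlap for Srsf6 and Srsf9. Srsf5 stood at -0.04 with an offset for GC content. Srsf4 was left out by the filter on low counts, at 2, 2, 0 and 5 counts for the temperature-responsive samples and 3, 13 and 16 for the others. Of its exonic bases 43.0% are shared with Gm12992, a transcript on the opposite strand which is also in the files with 10 to 37 counts, so that the Srsf4 level is uncertain.

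The SR-related factors and the Tra2 pair moved with them, and 4 of 5 rose. Tra2b, a sequence-specific activator of exon inclusion, stood at 79.9, 78.9, 79.7 and 72.1 CPM in temperature-responsive samples and at 56.5, 57.6 and 45.6 CPM in non-responsive samples. The groups were well apart, with a log2 fold change of 0.61 (SE 0.128, edgeR adjusted p = 0.00131). Its paralog Tra2a rose by 0.45 on the log2 scale (edgeR adjusted p = 0.00477), from 149 to 164 CPM against 105 to 144 CPM. The Tra2b to Tra2a ratio of counts overlapped between groups, with geometric means of 0.495 and 0.446. Srsf10, which turns into a general splicing repressor on dephosphorylation during heat shock, had 132, 118, 113 and 119 CPM in temperature-responsive and 86.7, 83.3 and 88.6 CPM in non-responsive samples. This difference of 0.54 on the log2 scale (SE 0.106, edgeR adjusted p = 0.000755) exceeded the spread between samples, and it stayed between 0.47 and 0.59 with each sample left out in turn. Srsf11 had the highest level of this family per length (38.3 CPM per kb) and a log2 fold change of 0.33 (edgeR adjusted p = 0.0133). Srsf12 did not pass (0.20, edgeR adjusted p = 0.229).

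Among the hnRNPs of the A, B and D groups, 4 of 7 rose. Hnrnpa0, which binds AU-rich elements in mRNAs, is encoded by a gene with a single exon, and it showed the clearest change among the general factors together with Hnrnpll. Its values were 288, 295, 259.7 and 264 CPM in temperature-responsive and 203, 171 and 156 CPM in non-responsive samples. The groups did not overlap, and the log2 fold change of 0.71 (SE 0.107, edgeR adjusted p = 0.000120) stayed between 0.62 and 0.83 with each sample left out. Hnrnpd, also called AUF1, which regulates mRNA decay, rose by 0.48 on the log2 scale (edgeR adjusted p = 0.00148), from 297 to 353 CPM against 219 to 259.9 CPM. Its relative Hnrnpdl rose by 0.27 (edgeR adjusted p = 0.0288), and this call was lost in 4 of the 7 fits that left out 1 sample. Hnrnpa1 was low, with 32 to 46 counts against 41 to 50. In CPM its groups overlapped, between 11.4 and 19.4 against 9.04 to 12.4. Its log2 fold change of 0.72 (SE 0.257, edgeR adjusted p = 0.0356) did not pass with DESeq2 (adjusted p = 0.0507) and was past the threshold in 2 of the 7 fits that left out 1 sample. Stretches of 50 bases shared with 19 other genes, 18 of them pseudogenes, make up 28.3% of its transcript, so that its level is uncertain. Hnrnpa2b1, Hnrnpa3 and Hnrnpab did not pass, at 0.11, 0.33 and 0.12, and the first stood at -0.03 with the GC offset.

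The L paralogs both rose. Hnrnpll, known for its control of CD45 splicing in lymphocytes, stood at 257, 272, 231 and 219 CPM in temperature-responsive and at 162, 168 and 140.4 CPM in non-responsive samples, and no sample of one group reached the other. The log2 fold change was 0.70 (SE 0.106, edgeR adjusted p = 0.000133). Hnrnpl, a regulator that binds CA repeats, rose by 0.33 (edgeR adjusted p = 0.0150) with values between 113 and 118 CPM against 93.3 to 99.7 CPM. Hnrnph1, a binder of G-rich elements, rose by 0.45 (adjusted p = 0.00220), and Hnrnpr, which also serves in axonal mRNA transport, by 0.32 (edgeR adjusted p = 0.0317), a call that held in 2 of the 7 fits that left out 1 sample. The other members did not pass. Hnrnpul2, a relative of Hnrnpu, came closest, with groups apart (0.23, edgeR adjusted p = 0.0564), and Hnrnpk, Hnrnpm and Hnrnph2 had overlapping groups at 0.08, -0.07 and 0.13 (-0.07, -0.07 and -0.08 with the GC offset). Hnrnpu, a nuclear scaffold protein and the most abundant of the K, L, M and U group per length, lay between 381 and 417 CPM against 381 to 432 CPM, a log2 fold change of 0.06 (SE 0.097). Hnrnpc, which guards against aberrant exons, had 214 to 233 CPM against 213 to 226 CPM (0.05, SE 0.092). The signs of both turned under some alternatives. Hnrnpul1 and Hnrnph3 had negative values (-0.48 and -0.46) with groups that did not overlap, but these rest on at most 111 counts and did not pass (adjusted p = 0.122 and 0.277, edgeR). Hnrnpf shares 67.3% of its 50-base stretches with other genes and had 25 to 61 counts, without passing (0.44, edgeR adjusted p = 0.190).

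**Figure D2:**
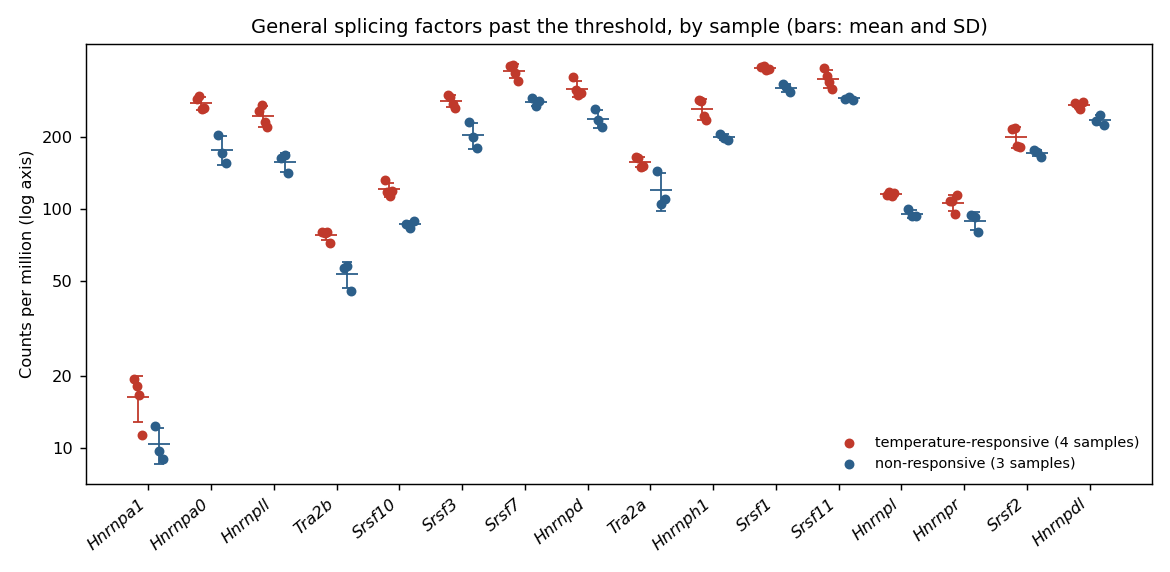
CPM on a log axis for the 16 general splicing factors past the threshold, in the 4 temperature-responsive (red) and 3 non-responsive (blue) samples, with group means and SD as bars. Apart from Hnrnpa1, which lies below 20 CPM and whose groups overlap, each factor has all red points above all blue points.

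The upstream sequence is shown for 2 of these genes, which rose although their transcripts differ in GC content, a property that bears on the comparison below (40.9% for Srsf3 and 55.4% for Hnrnpa0). Each is the run of 250 bases before the RefSeq start on GRCm38.p6 (mm10), written 5′ to 3′ on the strand of the gene. Capitals mark 3 motifs on either strand, which do not overlap one another here. These are the GC box with the letters GGGCGG, the CCAAT box with the letters of its name, and the TATA box with the letters TATAAA. Srsf3 lies at chr17:29032410-29032659 on the plus strand and Hnrnpa0 at chr13:58128557-58128806 on the minus strand.
Srsf3: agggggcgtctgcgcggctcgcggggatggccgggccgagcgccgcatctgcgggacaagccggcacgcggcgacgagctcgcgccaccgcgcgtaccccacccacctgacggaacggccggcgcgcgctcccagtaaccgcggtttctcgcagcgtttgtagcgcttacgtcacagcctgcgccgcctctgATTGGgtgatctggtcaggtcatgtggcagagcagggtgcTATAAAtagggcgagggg
Hnrnpa0: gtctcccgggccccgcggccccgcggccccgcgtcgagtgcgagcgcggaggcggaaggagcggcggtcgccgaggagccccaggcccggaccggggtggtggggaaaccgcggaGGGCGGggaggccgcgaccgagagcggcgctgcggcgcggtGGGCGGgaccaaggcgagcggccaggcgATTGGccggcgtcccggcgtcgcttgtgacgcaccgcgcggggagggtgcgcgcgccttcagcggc
The Srsf3 window held 35 CpG dinucleotides, a CCAAT box on the reverse strand and a TATA box close to the RefSeq start. In the GENCODE annotation Srsf3 starts at base 29032628, so that the end of the window, with the TATA box, lies inside the gene. The Hnrnpa0 window held 46 CpG dinucleotides, 2 GC boxes and a CCAAT box on the reverse strand. Promoter windows were found for 41 of the 45 factors (66 windows, since some genes have several starts). The general windows belong to 32 genes and the neuronal windows to 9. Windows of 1 gene can overlap, as for Elavl2, so the shares below count some bases more than once. GC boxes were present in 35 (79.5%) of the 44 windows of general factors, against 45.5% of the 22 windows of neuronal factors and 32.7% of all 32851 windows. The windows also differed in median GC content, at 66.6%, 54.0% and 52.4% in the same order. CCAAT boxes were present in 22 of the 44 windows, in 45.5% and in 33.8%, and TATA boxes in 6.82%, 9.09% and 12.4%. The heat shock element, as 3 GAA triplets in alternating orientation with 2 bases between them, was found in 2 member windows, those of Tra2b and Hnrnpa2b1, and in 0.466% of all windows. The full palindromic cyclic AMP response element was found in the Tra2a window alone among the members and in 1.55% of all windows. The E-box CACGTG was present in 6.06% of member windows and 6.02% of all windows. These matches are letters in a window and do not show that a factor binds.

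Neuronal factors were measured in every sample at 65 counts or more. Per kb of exon, Celf4 (92.2 CPM per kb) and Rbfox1 (83.3) had the highest mean levels, followed by Elavl4 (64.5), Elavl2 (43.9), Elavl3 (36.4), Rbfox3 (35.6), Celf2 (31.9), Ptbp2 (30.4), Nova1 (27.3), Rbfox2 (10.3) and Nova2 (5.80). The order of Elavl2 and Elavl3 differed between the groups, with 52.3 and 31.2 CPM per kb in temperature-responsive against 32.7 and 43.4 CPM per kb in non-responsive samples. In 3 families, Nova, Elavl and Rbfox, the paralogs did not move alike.

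NOVA proteins regulate the splicing of inhibitory synapse transcripts. Nova1 reached 343, 268, 235 and 253 CPM in temperature-responsive samples and 193, 191 and 189 CPM in non-responsive samples. Temperature-responsive replicate 1 was the highest, and the groups did not overlap (log2 fold change 0.59, SE 0.117, edgeR adjusted p = 0.000911). Nova2 went the other way, with 28.7, 34.5, 39.8 and 48.3 CPM in temperature-responsive and 55.3, 55.2 and 78.3 CPM in non-responsive samples. Its groups did not overlap either, and the log2 fold change was -0.67 (SE 0.163, edgeR adjusted p = 0.00368). The ratio of Nova1 to Nova2 counts, which does not depend on library scaling, was 11.9, 7.77, 5.90 and 5.24 in temperature-responsive and 3.49, 3.46 and 2.41 in non-responsive samples. Geometric means of 7.32 and 3.08 differed by 1.25 on the log2 scale. The ratio is not corrected for the GC content of the transcripts, 38.5% for Nova1 and 56.3% for Nova2. Of the exonic bases of Nova2, 31.7% overlap a long noncoding RNA on the opposite strand, so that antisense reads cannot be told apart from it.

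The 250 bases before the RefSeq start of each Nova gene are shown because the paralogs moved in opposite directions. Nova1 lies at chr12:46818768-46819017 on the minus strand and Nova2 at chr7:18925638-18925887 on the plus strand, both on GRCm38.p6 from RefSeq, with capitals as above.
Nova1: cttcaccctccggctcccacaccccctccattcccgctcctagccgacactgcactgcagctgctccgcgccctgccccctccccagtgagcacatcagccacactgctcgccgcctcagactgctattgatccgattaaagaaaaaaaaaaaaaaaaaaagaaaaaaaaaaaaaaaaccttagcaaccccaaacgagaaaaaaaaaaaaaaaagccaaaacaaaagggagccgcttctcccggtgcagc
Nova2: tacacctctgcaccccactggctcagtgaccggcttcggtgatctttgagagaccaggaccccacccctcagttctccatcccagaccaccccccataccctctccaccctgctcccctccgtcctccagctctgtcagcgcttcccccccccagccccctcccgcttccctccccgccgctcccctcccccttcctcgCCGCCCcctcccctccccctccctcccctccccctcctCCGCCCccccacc
The Nova1 window had a long run of adenines and none of the 3 boxes marked. In the GENCODE annotation the Nova1 gene reaches to base 46818929, within this window. The part of the window with the adenines therefore lies inside the gene as annotated there. The Nova2 window had 71.2% GC and 2 GC boxes on the reverse strand. The Nova1 and Nova2 windows had 11 and 10 CpG dinucleotides, fewer than those of Srsf3 and Hnrnpa0. The median was 6 over all windows, 10 over the windows of neuronal factors and 23 over those of general factors.

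ELAVL proteins bind AU-rich and U-rich stretches, stabilise mRNAs and regulate splicing in neurons. Elavl2 showed the largest log2 fold change of all the splicing factors tested, 0.74 (SE 0.117, edgeR adjusted p = 0.000181). Its values were 473, 463, 386 and 418 CPM in temperature-responsive and 320.3, 265 and 231 CPM in non-responsive samples. No sample overlapped, and the change stayed between 0.63 and 0.88 with each sample left out. Elavl4, also called HuD, had 397, 396, 364 and 359 CPM against 310.3, 328 and 276 CPM, a log2 fold change of 0.38 (edgeR adjusted p = 0.00641). Elavl3, also called HuC, fell, with 230.1, 176, 236 and 217 CPM against 295, 275 and 327 CPM (log2 fold change -0.41, SE 0.104, edgeR adjusted p = 0.00474). The Elavl2 to Elavl3 ratio of counts lay between 1.64 and 2.63 in temperature-responsive and between 0.706 and 1.09 in non-responsive samples. Their geometric means, 2.03 and 0.905, differed by 1.17 on the log2 scale. The Elavl ratio is not corrected for GC content either, which is 38.5% for Elavl2 and 54.1% for Elavl3.

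RBFOX proteins either enhance or repress an exon, depending on the side on which they bind. Rbfox1 was level between the groups, at 342, 377, 366 and 372 CPM against 372, 385 and 349.6 CPM. Its log2 fold change of 0.04 (SE 0.092, edgeR adjusted p = 0.772) lay within the spread between samples, and its sign turned under some alternatives. Rbfox2, the most widely expressed of the family, had 72, 66.9, 79.7 and 71.1 CPM in temperature-responsive and 91.6, 102 and 106 CPM in non-responsive samples (-0.40, SE 0.111, edgeR adjusted p = 0.00820). Rbfox3, the antigen of the neuronal marker antibody NeuN, had 152, 155, 199 and 211 CPM against 244, 251 and 238 CPM (-0.38, SE 0.103, edgeR adjusted p = 0.00726). Both fell without overlap of the groups. Of the neuronal markers, Snap25 rose (0.50), Tubb3 fell (-0.24) and the 3 others did not pass.

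Ptbp2, which replaces Ptbp1 in neurons, rose from 253, 219.5 and 235 CPM in non-responsive to 329, 338, 294 and 283 CPM in temperature-responsive samples (0.46, SE 0.103, edgeR adjusted p = 0.00205), without overlap. Ptbp1, the form of progenitors and non-neuronal cells, had 37 to 105 counts per sample and no detectable difference (-0.01, SE 0.200, edgeR adjusted p = 0.977). Of the 50-base stretches of the Ptbp1 transcript, 22.6% are also found in other genes. Its exonic bases overlap other genes by 20.7%, mainly an antisense transcript. The Ptbp2 to Ptbp1 ratio of counts overlapped between the groups, with 18.1, 17.5, 10.8 and 14.2 against 9.72, 10.7 and 11.3. Celf2 rose by 0.34 (edgeR adjusted p = 0.0140, held in 4 of 7 fits without 1 sample), although its groups overlapped, between 793 and 957 CPM against 672 to 797 CPM. Celf4, its neuron-enriched relative, had 768 to 942 CPM against 683 to 799.9 CPM and missed the threshold (0.27, edgeR adjusted p = 0.0518), but passed it with DESeq2 (adjusted p = 0.0174).

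**Figure D3:**
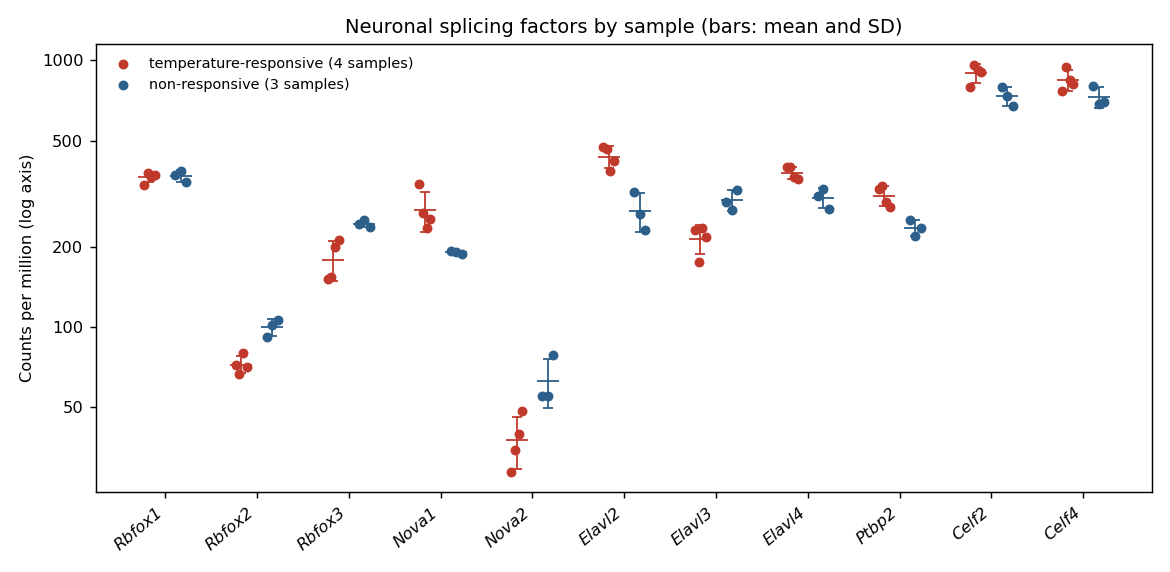
CPM on a log axis of the 11 neuronal splicing factors in the 4 temperature-responsive (red) and 3 non-responsive (blue) samples, with group means and SD as bars. Nova1, Elavl2, Elavl4 and Ptbp2 have all red points above the blue ones, and Nova2, Elavl3, Rbfox2 and Rbfox3 all red points below them.

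Groups did not overlap for 21 general factors in the higher direction and 2 in the lower direction, against 14.5% and 21.4% of all genes tested. Among the neuronal factors 4 lay apart in each direction. The paralog ratios were formed after the values were seen and carry no test.

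**Figure D4:**
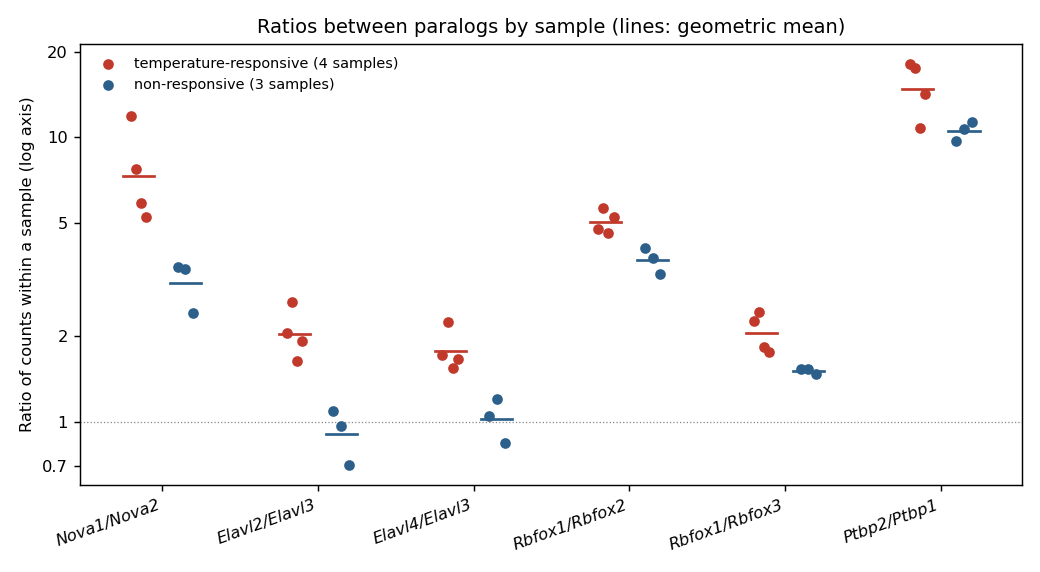
Ratio of counts between paralogs within each sample, on a log axis, with geometric means as lines. For the first 5 ratios every temperature-responsive sample (red) lies above every non-responsive sample (blue), as for Nova1 over Nova2 (5.24 to 11.9 against 2.41 to 3.49), whereas Ptbp2 over Ptbp1 overlaps. No ratio is corrected for GC content, and in each pair shown the first gene has the lower transcript GC content.

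General and neuronal factors were then set against each other within each sample. The 34 general factors summed to 5959, 5891, 5468 and 5453 CPM in temperature-responsive and to 4929, 4779 and 4626 CPM in non-responsive samples. The 11 neuronal factors summed to 3926, 4174, 3963 and 3947 CPM and to 3730.3, 3487 and 3395 CPM. Both sums were higher in each temperature-responsive sample than in each non-responsive sample, and together they took 0.940% to 1.01% of the counts against 0.802% to 0.866%. The ratio of the general to the neuronal sum lay between 1.38 and 1.52 in temperature-responsive and between 1.32 and 1.37 in non-responsive samples. The group means of its log2 differed by 0.07, and by 0.04 without temperature-responsive replicate 1, which had the highest ratio. The difference was 0.18 as a mean of log2 CPM over members, in which each gene counts alike, and 0.13 with CPM per kb. The rises of Elavl2, Elavl4, Nova1, Ptbp2 and Celf2 and the falls of Elavl3, Rbfox2, Rbfox3 and Nova2 thus met in 1 sum. Its largest members were Celf2 (means of 893.5 against 733.3 CPM) and Celf4 (841.4 against 725.6 CPM). The groups overlapped for both, and Celf4 did not pass the threshold.

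Transcript GC content moved with the direction of change. Across the 13745 genes tested with a known transcript, the log2 fold change fell with GC content (Spearman's rho = -0.342), and across the 44 splicing factors rho was -0.540. These correlations are descriptions across genes of the same 7 libraries, and genes are not independent replicates. For the 11 neuronal factors alone rho was -0.909, and the 4 that fell were the 4 with the highest GC content, Rbfox3 (58.6%), Nova2 (56.3%), Elavl3 (54.1%) and Rbfox2 (51.5%). The neuronal factors that rose lay between 34.2% (Ptbp2) and 42.1% (Celf2). General factors had a median of 43.6% GC, below the median of 49.8% over all genes. At or under 50% GC 21.5% of all genes rose and 7.02% fell, and over 50% GC 8.55% rose and 23.5% fell. Of the splicing factors at or under that limit 52.8% rose and none fell, and of the 8 over it 2 rose and 4 fell. Genes with 38% to 42% GC had a median log2 fold change of 0.29, and those with 54% to 58% GC one of -0.20. Elavl2 and Nova2 lay beyond these medians, at 0.74 and -0.67, and Hnrnpa0, with 55.4% GC, lay above the upper quartile of its bin (0.14). Hnrnpl, with 54.2% GC, also rose.

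With an offset for GC content in the fit, 11 general factors rose and none fell, against 11.6% higher and 12.4% lower among all genes. Of the neuronal factors 3 rose and 3 fell. Hnrnpa0 (0.83), Hnrnpll (0.49), Elavl2 (0.47), Hnrnpl (0.42), Tra2b (0.37), Srsf10 (0.35), Tra2a (0.35), Srsf3 (0.33), Nova1 (0.31), Srsf7 (0.30), Hnrnpd (0.29) and Srsf2 (0.29) remained past the threshold, as did the falls of Nova2 (-0.54), Rbfox2 (-0.36) and Elavl3 (-0.32). Srsf11 (0.23), Hnrnpdl (0.20), Hnrnpr (0.12) and Hnrnpa1 (0.60) also missed the threshold with the offset. Hnrnpul2 (0.24) and Celf4 (0.27) missed the threshold without the offset and passed with it. Ptbp2 stood at 0.08 (edgeR adjusted p = 0.561), Elavl4 at 0.12 (adjusted p = 0.323), Srsf1 at 0.13 (adjusted p = 0.281), Hnrnph1 at 0.14 (adjusted p = 0.236), Celf2 at 0.17 (adjusted p = 0.178) and Rbfox3 at -0.21 (edgeR adjusted p = 0.102). The offset left a rho of -0.068 over all genes, of -0.203 over the 44 splicing factors, of 0.089 over the 33 general factors (-0.279 without it) and of -0.727 over the neuronal factors.

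**Figure D5:**
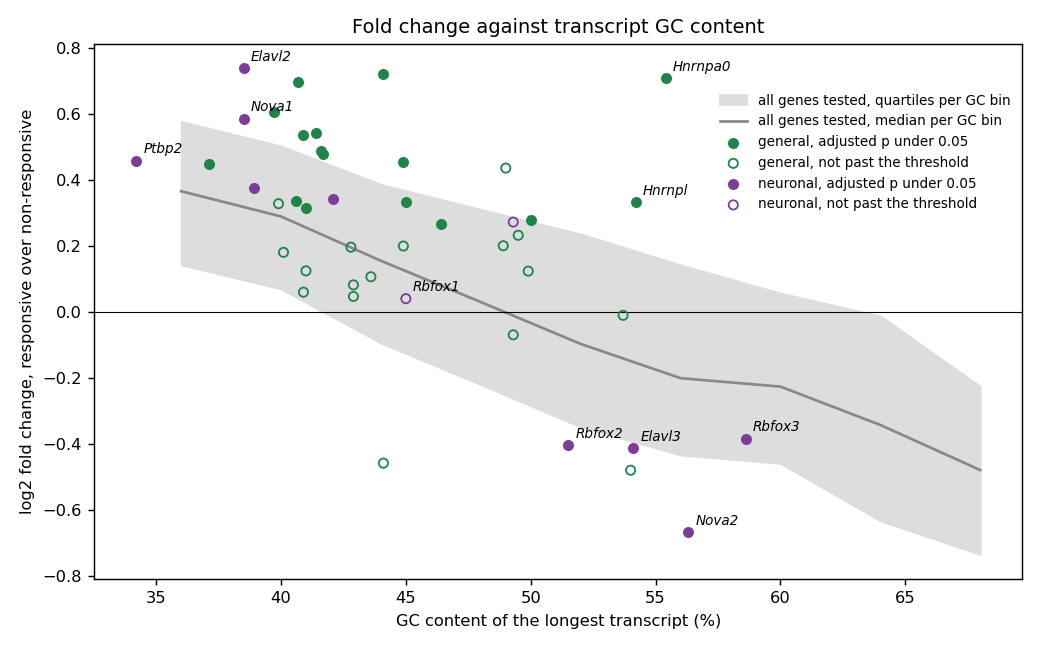
Log2 fold change (y axis) against the GC content of the longest transcript (x axis, %) for the general (green) and neuronal (purple) splicing factors, filled where they passed the threshold. The grey line and band give the median and quartiles of all genes tested per bin of GC content, which fall from left to right, with Hnrnpa0 far above the band and Nova2 below it.

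Related genes were described by lists of the splicing apparatus. Core spliceosome components carry out the reaction itself. Of 33 tested, 3 rose (9.09%, against 15.1% of all genes), 9 fell (27.3%, against 14.9%) and 21 did not pass, with a median log2 fold change of -0.14. Sf3a2, a subunit of the U2 particle, had the largest fall (-1.29, edgeR adjusted p = 0.000633), at 9.13 ± 3.57 CPM (SD, n = 4) against 23.9 ± 3.00 CPM (SD, n = 3). Snrpb, a core Sm protein, fell by 0.84 on the log2 scale. Snrpe, another Sm protein, had the largest rise among those past the threshold (0.63, edgeR adjusted p = 0.00248). With the GC offset 2 core components rose and 7 fell, beside 11.6% and 12.4% of all genes. Whether the core components and the general factors differ as lists was not tested.

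The kinases that phosphorylate SR proteins were also divided. Of 9 tested, Clk1 rose (0.54, edgeR adjusted p = 0.00217), while Clk2 (-0.59, adjusted p = 0.00303), Clk3 (-0.47, adjusted p = 0.00931) and Srpk1 (-0.39, edgeR adjusted p = 0.0490) fell. In shares, 11.1% of the kinases rose and 33.3% fell, against 15.1% and 14.9% of all genes. Clk1 had 248 ± 44 CPM (SD, n = 4) against 177 ± 7.92 CPM (SD, n = 3), and Clk2 43.7 ± 5.64 CPM (SD, n = 4) against 68.8 ± 9.27 CPM (SD, n = 3). These 4 calls held with the GC offset. Among 37 other splicing regulators tested, 12 rose (32.4%) and 5 fell (13.5%), and with the GC offset 6 rose and 4 fell, where the shares over all genes are those given for the core components. Mbnl1, which promotes the splicing pattern of mature tissue, had the largest rise (0.73, edgeR adjusted p = 9.5e-05), at 436 ± 40.5 CPM (SD, n = 4) against 274 ± 18.6 CPM (SD, n = 3). Pcbp3, a poly(C)-binding protein, had the largest fall (-0.60, edgeR adjusted p = 0.00374). Elavl1, the ubiquitous relative of the neuronal Elavl genes, rose by 0.34 (edgeR adjusted p = 0.0154) and did not pass with the GC offset (adjusted p = 0.0537). The neuron-specific SR-related factor Srrm4 did not pass (-0.33, edgeR adjusted p = 0.0963).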

How the data were processed

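The members and lists of genes were chosen with earlier results of these data known. The authors aligned reads of 7 samples to mm10 with STAR 2.6.0, removed duplicates with RmDup, counted reads per gene symbol with HTSeq 0.9.1 and deposited the raw counts. As no molecular identifiers were used, duplicate removal can lower abundant genes. The annotation, strand setting and overlap rule are not given in the sources used here.

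CPM scale each count to the total of its sample. A gene entered the comparison if 3 or more samples reached 10 counts, which left 14407 genes, compared with edgeR 4.0.16 in R 4.3.3 (quasi-likelihood, robust, TMM, two-sided), with Benjamini-Hochberg adjustment over all genes and a threshold of 0.05. TMM factors were 0.951 to 1.037. Standard errors came from the fold change and its F statistic. DESeq2 1.42.0 was an alternative, with other normalizations, filters, downsampling, covariates, GC content and length offsets (mgcv 1.9.3), a replicate block and omission of each sample. Replicate numbers came from the labels. Samples of a group differed by more than counting noise (chi-square per degree of freedom from 2.03 to 5.11).

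GENCODE M21 (mm10) gave the exonic lengths, overlaps and GC content of the longest transcripts, and held 94.5% of the symbols. Stretches of 50 bases were looked up in the transcripts of all other genes on both strands. The genes named are all neuronal factors and Ptbp1, the most abundant member of each family per length, the 10 largest changes among general factors past the threshold with groups apart, those left out by the filter, and the largest rise and fall of each related list. A few others were picked with their values in view. Simulated counts were used to test the fit.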

Additional observations from a re-analysis of the deposited data

Results flagged for a closer look

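For 3 of 56 measures a single temperature-responsive sample stood apart from its group, with a gap to its neighbour that took more of the range than Dixon's 95% critical value allows. Chance alone does so in about 1 of 20 groups. Temperature-responsive replicate 4 had 4.97 CPM of Hnrnph3, against 7.24 to 7.51 CPM in the 3 others (ratio 0.896). The same sample had 72.1 CPM of Tra2b, against 78.9 to 79.9 CPM (ratio 0.864), and remained above each non-responsive sample. The Tra2b to Tra2a ratio of counts was 0.535 in temperature-responsive replicate 3 and 0.478 to 0.487 in the others (ratio 0.845).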

How the results depend on the processing

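The 25 splicing factors past the threshold kept their direction under all alternatives run. The 16 general factors that rose became 9 when each gene with a count was tested and 0 with the covariate of genes detected (edgeR, where 1 of all genes was called), and 9 to 16 with each sample left out. None fell under any alternative. The number of neuronal rises went from 5 to 3 with the GC offset (Elavl2, Nova1 and Celf4, the last not among the 5). It was 2 with the replicate block and the GC offset together, 0 with the covariate, and 3 to 6 with each sample left out. The 4 neuronal falls became 2 with the replicate block and the GC offset together and 0 with the covariate, and stayed at 4 with each sample left out. The cause was not tested. Same-numbered samples did not deviate together (mean correlation of deviations -0.053, against 0.017 for other pairs), and no sample correlated best with its own number. With the replicate block alone, 15 general factors rose and none fell, and 6 neuronal factors rose and 4 fell.

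The difference in log2 ratio of the general to the neuronal sum (0.07) was 0.18 as a mean of log2 CPM over members, 0.13 with CPM per kb, and 0.04 to 0.09 with each sample left out. No scaling moved the median of all genes beyond -0.05 to 0.07, but the number of calls changed. With library size only 12 general factors rose in place of 16, and with upper quartile scaling 20 did.

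Fitted log2 fold changes changed sign for 8 splicing factors, none of them past the threshold. Of these, Hnrnpa2b1 (-0.03), Hnrnph2 (-0.08), Hnrnpk (-0.07) and Srsf5 (-0.04) did so with the GC offset, and kept their sign in 11, 10, 9 and 10 of the 12 alternatives that use all samples. Hnrnpc (0.05) was -0.0137 with library size only, -0.0448 when each gene with a count was tested, -0.11 with the GC offset and -0.10 with block and offset. Hnrnpu (0.06) was -0.0307 when each gene with a count was tested, -0.013 with the covariate, -0.15 with the offset and -0.15 with block and offset. Rbfox1 (0.04) was -0.0191, -0.0515, -0.0634, -0.0587 and -0.0705 with library size only, each gene with a count, the covariate, the offset, and block and offset. Ptbp1 (-0.01) was 0.0551 by upper quartile scaling, 0.0141 with 10 counts required in every sample, 0.15 with downsampling, 0.0714 with the offset, 0.0239 with the block and 0.12 with both, and -0.15 to 0.11 with each sample left out. With each sample left out in turn, 15 of the 25 calls held in all 7 fits, and those of Hnrnpa1, Hnrnpr, Srsf2, Hnrnpdl, Celf2, Hnrnpl, Srsf11, Elavl4, Srsf1 and Tra2a were lost in at least 1. Low counts limit Srsf4, Hnrnpa1, Hnrnpf, Hnrnph3 and Hnrnpul1.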
